A study of Homo sapiens with 6 samples.

Results

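This section describes FGF18 and the other measured parts of fibroblast growth factor (FGF) signaling at the cell surface in SW480 cells after knockdown of ZEB1. The group held 10 of the 32029 genes listed in the count files. They were the ligands FGF2, FGF9, FGF18 and FGF19, the kinase receptors FGFR1 to FGFR4, the receptor without a kinase domain FGFRL1, and the carrier FGFBP3, and each was found by its symbol. The group was chosen with its read counts in these same 6 libraries known, FGF18 above all, so its differences are given as a description. No p-value is printed for these 10 genes, and where one is said to be called or not, that only places it in the fit over all genes and is no test of the group.

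SW480 is an established line from a human colorectal adenocarcinoma, labelled wild type in the control group and ZEB1 knockdown in the other. Cells were transfected with a control siRNA (siControl, siNC in the labels; n = 3) or with siRNA against ZEB1 (siZEB1; n = 3), and total RNA was taken after 48 h in both groups. The comparison asks what the cells transcribe when ZEB1, a zinc-finger transcription factor that represses epithelial genes, is reduced. The sources used here do not give how many siRNA sequences siZEB1 held, so loss of ZEB1 and other actions of the siRNA cannot be told apart in this design.

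FGFs are secreted proteins that bind a receptor tyrosine kinase together with heparan sulfate, a sugar chain carried by cell-surface proteoglycans. Binding pairs the receptors, which phosphorylate the adaptor FRS2 and, through GRB2 and SOS, switch on the RAS-ERK cascade, whose output includes ETS factors and the Sprouty and DUSP feedback inhibitors. FGF18 is a paracrine ligand best known from bone, cartilage and lung development, it is induced by β-catenin signaling in colorectal tumors, and SW480 cells carry a truncated APC that keeps β-catenin active. FGF19 is an endocrine ligand of the intestine that acts through FGFR4 and β-klotho. Splicing of FGFR1, FGFR2 and FGFR3 makes an epithelial (IIIb) and a mesenchymal (IIIc) receptor form with different ligands, and counts per gene do not separate those forms.

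Promoter letters are shown for the members in which a searched motif was found, because ZEB1 is known to bind E-boxes and FGF18 is known to answer to β-catenin through TCF/LEF factors. RefSeq windows of 250 bases before to 50 after a gene's start (GRCh38.p14) were given for 7 of the 10 members, 12 windows in all, and FGF9, FGF19 and FGFR1 had none. On both strands, CTTTGAT (or ATCAAAG), a TCF/LEF motif, was found in the windows of FGF18 and FGFRL1. Of all 35116 windows of that length, 2.62% held it. The 250 bases before the start are printed 5′ to 3′ on the gene's strand with that motif in capitals, for FGF18 at chr5:171419397-171419646 (plus strand) and for FGFRL1 at chr4:1012214-1012463 (plus strand).
FGF18: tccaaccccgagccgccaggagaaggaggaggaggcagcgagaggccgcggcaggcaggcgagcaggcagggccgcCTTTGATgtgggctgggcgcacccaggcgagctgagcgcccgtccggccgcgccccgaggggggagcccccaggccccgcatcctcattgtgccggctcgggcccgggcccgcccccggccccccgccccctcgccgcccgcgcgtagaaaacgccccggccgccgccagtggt
FGFRL1: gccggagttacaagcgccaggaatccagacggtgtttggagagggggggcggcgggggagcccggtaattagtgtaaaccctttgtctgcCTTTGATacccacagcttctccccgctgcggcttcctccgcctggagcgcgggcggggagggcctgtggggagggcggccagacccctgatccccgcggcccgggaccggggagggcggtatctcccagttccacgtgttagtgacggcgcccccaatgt
The first base of the motif lay 174 bases before the start in FGF18 and 160 bases before it in FGFRL1. The FGFRL1 window belongs to a start inside the gene as GENCODE draws it, which runs from 1009936 to 1026897 on chromosome 4.

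The E-box CACCTG (or CAGGTG), searched on both strands, was found in 1 of the 2 windows of FGFR4 and in 1 of the 5 windows of FGFR2, beside 20.6% of all windows. FGF18 held none in its window. The 46 bases around each E-box follow, the E-box in capitals, for FGFR4 at chr5:177086675-177086720 (plus strand) and FGFR2 at chr10:121594102-121594147 (minus strand).
FGFR4: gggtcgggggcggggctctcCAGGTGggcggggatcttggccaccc
FGFR2: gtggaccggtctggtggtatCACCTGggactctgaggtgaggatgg
The first base of the E-box was 220 bases before the start in FGFR4 and 160 bases before it in FGFR2, and both starts lie inside the gene as GENCODE draws it. The E-box CAGGTA (or TACCTG) was in no member window, beside 9.83% of all windows. These matches say only which letters are present.

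The libraries held between 19040636 and 22357633 counts. Each level is in CPM, the reads of a gene relative to the TMM-scaled size of its library, and 14996 genes with enough counts for the test were compared by edgeR's quasi-likelihood test, with an adjusted p under 0.05 as the call. ZEB1, the targeted gene, had 1247, 1276 and 908 reads in siControl and 136, 132 and 162 in siZEB1, a log2 fold change of -2.85 (SE 0.11), so the labels and the target gave the same order. Of the 9 colorectal epithelial markers, 6 averaged at least 1 CPM, while CDH17, LGR5 and KRT20 stayed under 1 CPM. All 9 summed to 4815 to 5438 CPM in siControl and 5329 to 6002 CPM in siZEB1. Most of that was KRT8 and KRT18, which were not called. EPCAM averaged 54.7 CPM in siControl and 454 CPM in siZEB1, KRT19 72.3 and 223 CPM, and VIL1 4.08 and 20.7 CPM, all called higher. CDX2 averaged 103 and 41.8 CPM and LGR5 0.849 and 0.209 CPM, both called lower. The summed fibroblast markers (6 of 7 listed) were 13.5 to 15.0 CPM in siControl and 13.3 to 15.3 CPM in siZEB1, with COL1A1 and PDGFRB at or over 1 CPM. The leukocyte sums were 0.611 to 0.882 and 0.477 to 0.676 CPM with no marker reaching 1 CPM, and the endothelial sums were 2.02 to 2.72 and 1.54 to 2.60 CPM, led by PECAM1. DCN, PTPRC and CDH5 were not listed.

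Of the 10 members, 9 passed the filter on low counts, 6 of these were called lower in siZEB1, 0 were called higher and 3 were not called. Over all genes tested, 40.2% were called, 21.2% lower and 19.0% higher. Because the members were chosen from this contrast, nothing is read from that difference. The median log2 fold change was -0.67 over the 9 members and -0.0055 over all genes tested. The 3 siControl libraries did not overlap with the 3 siZEB1 libraries in 8 of the 9 members, beside 49.5% of all genes tested.

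**Figure D1:**
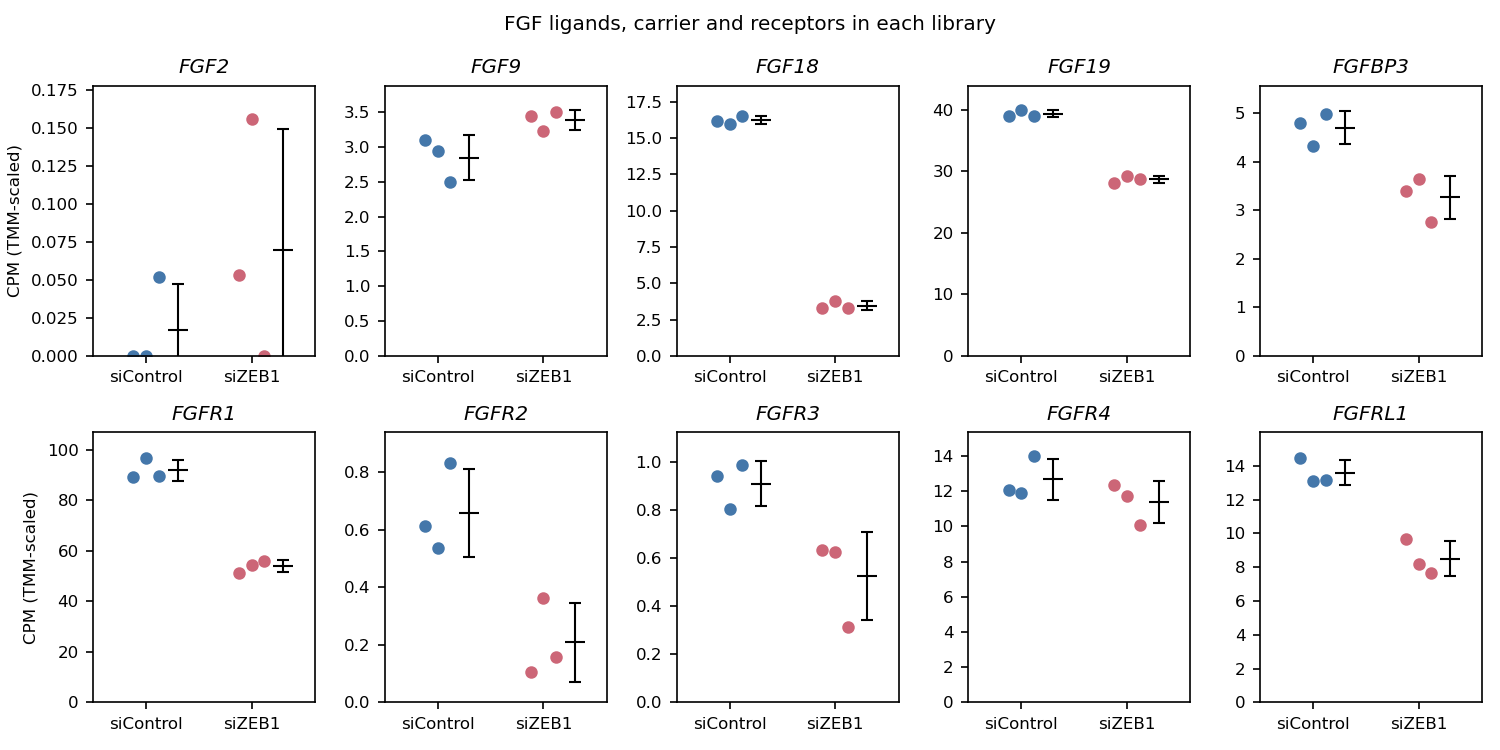
Each panel plots 1 gene, with CPM on the vertical axis from 0 (scale set per gene), a dot for each of 3 siControl (blue) and 3 siZEB1 (red) libraries, and a bar for the mean ± SD. FGF18 stands at 16.0 to 16.5 CPM in siControl and 3.28 to 3.80 CPM in siZEB1, while the FGFR4 dots of the groups overlap.

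Among the ligands, FGF18 (ENSG00000156427) differed most between the groups. The gene lies on chromosome 5 from 171419656 to 171457623 (GRCh38, plus strand), with 1986 exonic bases and no exon of another gene over them. It had 344, 358 and 319 reads in the siControl libraries and 62, 73 and 63 reads in the siZEB1 libraries. All 3 siControl libraries were far above all 3 siZEB1 libraries, and the libraries of each group lay close together.
In CPM these were 16.2, 16.0 and 16.5 against 3.28, 3.80 and 3.29, or 16.2 ± 0.285 and 3.46 ± 0.294 CPM (SD, n = 3 each). FGF18 was therefore 4.69-fold lower in siZEB1, a log2 fold change of -2.23 (SE 0.12), and 14 of the 14996 genes tested had a lower fold change. With any 1 library left out, its log2 fold change was between -2.30 and -2.19. In bulk RNA, fewer cells with the transcript and less of it per cell cannot be told apart.

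FGF19 (ENSG00000162344, chromosome 11 from 69698232 to 69704642, minus strand) was the ligand with the most reads. It had 829, 896 and 752 reads in siControl and 531, 561 and 550 reads in siZEB1. Its level was 39.3 ± 0.585 CPM in siControl and 28.7 ± 0.527 CPM in siZEB1, a log2 fold change of -0.46 (SE 0.072). The groups did not overlap, and the difference was smaller than that of FGF18.

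FGF9 (ENSG00000102678, chromosome 13), a paracrine ligand that prefers IIIc receptor forms and FGFR3, was the 1 tested member with a higher mean in siZEB1. Its reads were 66, 66 and 48 in siControl and 65, 62 and 67 in siZEB1. After scaling, the levels were 3.10, 2.95 and 2.49 CPM against 3.44, 3.22 and 3.50 CPM, which did not overlap although the raw reads did. The log2 fold change of 0.25 (SE 0.17) was not called.

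FGF2, the basic FGF that many mesenchymal cells make, was nearly absent. It had 0, 0 and 1 reads in siControl and 1, 3 and 0 reads in siZEB1, below the filter. The sums were 1 and 4 reads, a ratio of siZEB1 to siControl of 4.40 with a 95% interval from 0.435 to 217 that covers counting error only. No difference was detectable at this depth, and 11.9% of its exonic bases lie opposite exons of NUDT6, the antisense gene at this locus.

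FGFBP3, a secreted protein that releases FGFs held by the matrix, had 102, 97 and 96 reads in siControl and 64, 70 and 53 in siZEB1. Its level was 4.70 ± 0.334 CPM in siControl and 3.27 ± 0.449 CPM in siZEB1, a log2 fold change of -0.52 (SE 0.16). The groups did not overlap, but without siZEB1 replicate 3 the log2 fold change was -0.41 and the call was lost. Exons on the other strand cover 10.6% of its exonic bases.

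FGFR1, on chromosome 8, was by far the most abundant kinase receptor. It had 1897, 2165 and 1727 reads in siControl and 969, 1048 and 1072 reads in siZEB1. Its level was 91.8 ± 4.21 CPM in siControl and 53.9 ± 2.39 CPM in siZEB1, a log2 fold change of -0.77 (SE 0.068). The lowest siControl library, at 89.2 CPM, lay well above the highest siZEB1 library, at 56.0 CPM.

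FGFR4 (chromosome 5 from 177086886 to 177098144, plus strand), the receptor through which FGF19 acts, was the next most abundant. Its reads were 257, 267 and 270 in siControl and 233, 226 and 193 in siZEB1. In CPM the siControl libraries stood at 12.1, 11.9 and 14.0 and the siZEB1 libraries at 12.3, 11.8 and 10.1, so the groups overlapped. The log2 fold change was -0.15 (SE 0.11) and was not called.

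FGFR3 and FGFR2 gave few reads, and their folds are correspondingly imprecise. FGFR3 (chromosome 4 from 1793293 to 1808872, plus strand) had 20, 18 and 19 reads in siControl and 12, 12 and 6 reads in siZEB1, a log2 fold change of -0.78 (SE 0.37) that was not called and was -0.52 without siZEB1 replicate 3. FGFR2 (chromosome 10 from 121478334 to 121598458, minus strand) had 13, 12 and 16 reads in siControl and 2, 7 and 3 reads in siZEB1. Neither gene's groups overlapped, but the siZEB1 library with 7 FGFR2 reads stood apart from the others at 2 and 3.
The log2 fold change of FGFR2 was -1.61 (SE 0.50), and the gene passed the filter through its siControl libraries. The call was lost without siControl replicate 3 (-1.43), without siZEB1 replicate 1 (-1.31) or without siZEB1 replicate 3 (-1.44), and the log2 fold change was -2.26 without siZEB1 replicate 2. At a minimum of 10 counts in every library FGFR2 and FGFR3 were not tested.

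FGFRL1 (chromosome 4 from 1009936 to 1026897, plus strand) binds FGFs but lacks the kinase domain. It had 307, 294 and 254 reads in siControl and 183, 157 and 147 reads in siZEB1. Its level was 13.6 ± 0.743 CPM in siControl and 8.51 ± 1.05 CPM in siZEB1, a log2 fold change of -0.67 (SE 0.11). Every siControl library was above every siZEB1 library.

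To compare levels between genes, CPM were divided by the exonic length in kilobases (RPKM). In siControl, FGF19 led at 16.1 ± 0.239 RPKM, followed by FGF18 at 8.18 ± 0.144, FGFR1 at 6.63 ± 0.304, FGFRL1 at 3.28 ± 0.179 and FGFR4 at 2.62 ± 0.240 RPKM. FGFBP3 at 1.85 ± 0.131, FGF9 at 0.627 ± 0.0703, FGFR3 at 0.188 ± 0.0195, FGFR2 at 0.0870 ± 0.0202 and FGF2 at 0.00255 RPKM came after. No pair of neighbours in that order had overlapping libraries.
In siZEB1 the order began with FGF19 at 11.7 ± 0.215 RPKM and FGFR1 at 3.90 ± 0.173 RPKM. FGFR4 (2.36 ± 0.243 RPKM) overlapped with FGFRL1 (2.05 ± 0.253 RPKM), and FGFRL1 overlapped with FGF18 (1.74 ± 0.148 RPKM). By this measure FGF18 stood above all the receptors in siControl and below FGFR1 and FGFR4 in siZEB1. The length used is the union of all annotated exons, 13842 bases for FGFR1 and 1986 for FGF18. Which transcripts the cells make was not measured. The order of genes as close as FGF18 and FGFR1 in siControl, and the shares given below, therefore rest on those lengths. The weak end held FGFBP3 at 1.28 ± 0.176, FGF9 at 0.747 ± 0.0321, FGFR3 at 0.108 ± 0.0377, and FGFR2 at 0.0276 ± 0.0180 and FGF2 at 0.0103 RPKM, which overlapped.

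**Figure D2:**
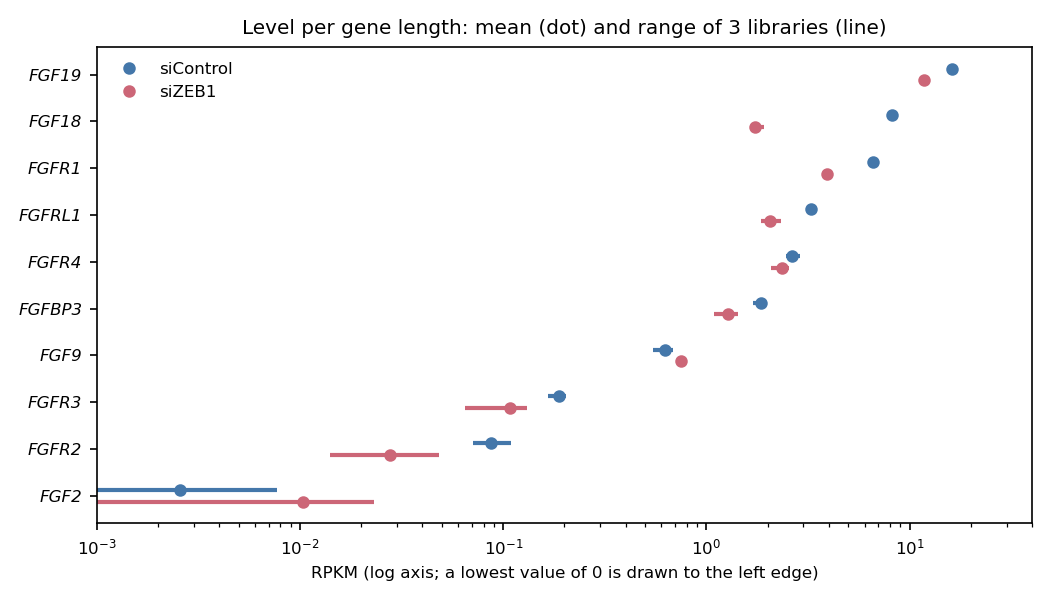
The horizontal axis is RPKM on a log scale and the rows are the 10 genes in their siControl order, with a dot for the mean and a line for the range of 3 libraries in siControl (blue) and siZEB1 (red). The widest gap between the colors among genes above 1 RPKM is that of FGF18, 8.18 against 1.74 RPKM.

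The make-up of the transcripts of the 4 member ligands differed with the group. Other ligands are outside this sum, so the shares are not those of all FGF ligand transcripts in the cells. Among those left out, FGF3 averaged 15.3 CPM in siControl and 9.00 CPM in siZEB1, beside 16.2 and 3.46 CPM for FGF18. The 4 ligands summed to 24.9 ± 0.150 RPKM in siControl and 14.2 ± 0.329 RPKM in siZEB1. FGF18 held 32.9% ± 0.712 of that sum in siControl and 12.2% ± 0.775 in siZEB1, FGF19 held 64.6% ± 0.582 and 82.4% ± 0.531, and FGF9 held 2.52% ± 0.283 and 5.26% ± 0.329 (SD, n = 3 each). The share of FGF19 was thus higher in siZEB1 although its own level was lower.
Among the kinase receptors, the sum was 9.53 ± 0.268 RPKM in siControl and 6.39 ± 0.165 RPKM in siZEB1. FGFR1 held 69.6% ± 2.64 and 61.0% ± 3.68 of it, and FGFR4 held 27.5% ± 2.26 and 36.9% ± 3.16. FGFR3 held 1.97% and 1.68% and FGFR2 0.912% and 0.428%, so FGFR1 and FGFR4 made up nearly all of this kinase receptor sum in both groups. FGFRL1, which lacks the kinase domain, is outside the sum, at 3.28 RPKM in siControl and 2.05 RPKM in siZEB1.

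**Figure D3:**
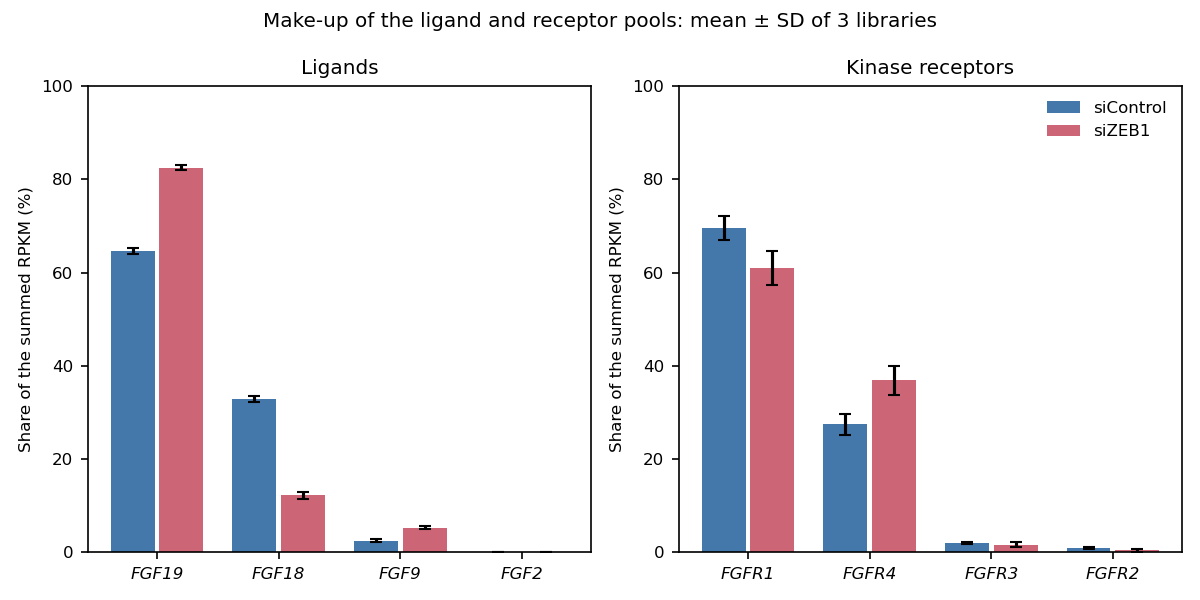
Bars give each gene's share, in percent from 0 to 100, of the summed RPKM of the 4 ligands (left) and of the 4 kinase receptors (right), as mean ± SD of 3 libraries in siControl (blue) and siZEB1 (red). The FGF18 bar is 32.9% in siControl and 12.2% in siZEB1, and the FGFR4 bar is 27.5% and 36.9%.

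The other genes of the pathway were taken from a list of 99 in 11 roles, written by role with some earlier results of these data known. Of these, 89 were listed and 73 tested, and 14 were called higher, 33 lower and 26 were not called by edgeR's quasi-likelihood test, or 64.4% called beside 40.2% of all genes. Their median log2 fold change was -0.20, and that of all genes tested was -0.0055. The counts by role below are of called genes, and each stands beside 21.2% of all genes tested called lower and 19.0% called higher. All genes tested were not matched to the pathway genes by level, so nothing is read from these differences in share.

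Of 5 other secreted ligands tested, FGF3 was called lower, FGF21 higher and 3 were not called. FGF3, a ligand gene near FGF19, averaged 15.3 ± 2.10 CPM in siControl and 9.00 ± 1.42 CPM in siZEB1 (log2 fold change -0.76, SE 0.13; edgeR's adjusted p = 0.000163). FGF21, an endocrine ligand of the same subfamily as FGF19, had 7, 3 and 3 reads in siControl and 16, 14 and 11 in siZEB1 (1.76, edgeR's adjusted p = 0.0063). It averaged under 1 CPM, passed the filter through its siZEB1 libraries, where it is high, and was named after its values were seen. With 1 library left out its log2 fold change was 1.52 to 2.26, and at a minimum of 10 counts in every library it was not tested.
KLB, the β-klotho that FGF19 and FGF21 need, had 4, 3 and 10 reads in siControl and 6, 5 and 6 reads in siZEB1, below the filter. The carrier GLG1 had a log2 fold change of -0.08 (edgeR's adjusted p = 0.328) and the intracellular FGF13 one of 0.13 (edgeR's adjusted p = 0.514). Neither of the 2 intracellular FGFs tested was called.

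The heparan sulfate part moved in both directions. Of 7 proteoglycans tested, 3 fell and 2 rose: SDC3 fell from 43.5 to 18.3 CPM (-1.25, edgeR's adjusted p = 2.95e-09), while SDC4 rose from 98.1 to 205 CPM (1.06, edgeR's adjusted p = 4.43e-10). GPC4 fell by 0.56 on the log2 scale (edgeR's adjusted p = 2.46e-06).
Of 9 enzymes that build or edit the chains, 6 fell and 2 rose. GLCE, the epimerase of the chain, fell from 69.3 to 29.4 CPM (-1.24, edgeR's adjusted p = 2.71e-09), and SULF2, an extracellular sulfatase, fell from 22.2 to 12.1 CPM (-0.88, edgeR's adjusted p = 6.51e-07). HS2ST1, a 2-O-sulfotransferase, rose from 40.4 to 61.3 CPM (0.60, edgeR's adjusted p = 7.59e-06). Of the membrane partners neither of the 2 tested was called, L1CAM being at -0.20 (edgeR's adjusted p = 0.12).

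All 5 listed regulators of FGF receptor splicing were called higher, beside 19.0% of all genes tested, and their sizes differed widely. The list does not sort them by the receptor form they favor, so their common direction says nothing on which forms were made. ESRP1, which drives the epithelial IIIb form of FGFR2, had 5, 6 and 6 reads in siControl and 50, 46 and 71 in siZEB1, a log2 fold change of 3.40 (SE 0.33; edgeR's adjusted p = 3.58e-07). It passed the filter through its siZEB1 libraries, its log2 fold change was 3.19 to 3.53 with 1 library left out, and it was not tested at a minimum of 10 counts in every library. Its relative ESRP2 rose from 56.0 to 75.3 CPM (0.43, edgeR's adjusted p = 6.03e-05) and HNRNPM rose by 0.30 on the log2 scale (edgeR's adjusted p = 0.00017). RBFOX2 and PTBP1, given to complete the 5, rose by 0.22 and 0.16 on the log2 scale (edgeR's adjusted p = 0.0098 and 0.0144). Among the receptors with IIIb and IIIc forms, the siZEB1 libraries held 2 to 7 reads of FGFR2, 6 to 12 of FGFR3 and 969 to 1072 of FGFR1.

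Inside the cell, the adaptors at the receptor were split, with 6 lower, 1 higher and 7 not called of 14. FRS2, the docking protein of FGF receptors, fell from 31.8 to 21.9 CPM (-0.54, edgeR's adjusted p = 0.00045), SHC1 fell by 0.45 and GRB2 by 0.24 on the log2 scale (edgeR's adjusted p = 1.82e-05 and 0.00298). PTPN11, the phosphatase SHP2, rose by 0.32 on the log2 scale (edgeR's adjusted p = 0.00276). Of 9 genes of the RAS-ERK cascade 4 fell and 1 rose, with MAP2K2 at -0.52, KSR1 at -0.48 and MAP2K1 at -0.42 (edgeR's adjusted p = 1.72e-05, 0.00847 and 6.2e-05).

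Of 11 feedback inhibitors 8 fell, 0 rose and 3 were not called. SPRY4, a Sprouty protein induced by ERK, fell from 378 to 135 CPM (-1.48, edgeR's adjusted p = 4.85e-12). SPRY1 fell by 0.89 and SPRY2 by 0.69 on the log2 scale (edgeR's adjusted p = 0.000468 and 1.11e-05).
Of 8 transcriptional targets 5 fell and 2 rose. ETV1 fell from 31.1 to 16.6 CPM (-0.91, edgeR's adjusted p = 3.55e-07), ETV5 from 241 to 161 CPM (-0.58, edgeR's adjusted p = 4.74e-07) and MYC from 519 to 332 CPM (-0.64, edgeR's adjusted p = 5.47e-08). ETV4 and EGR1 were the pair that rose, by 0.20 and 0.26 on the log2 scale (edgeR's adjusted p = 0.0187 and 0.00129), and were named after their values were seen. These genes answer to many receptors, and the part of FGF signaling in their levels was not tested.

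**Figure D4:**
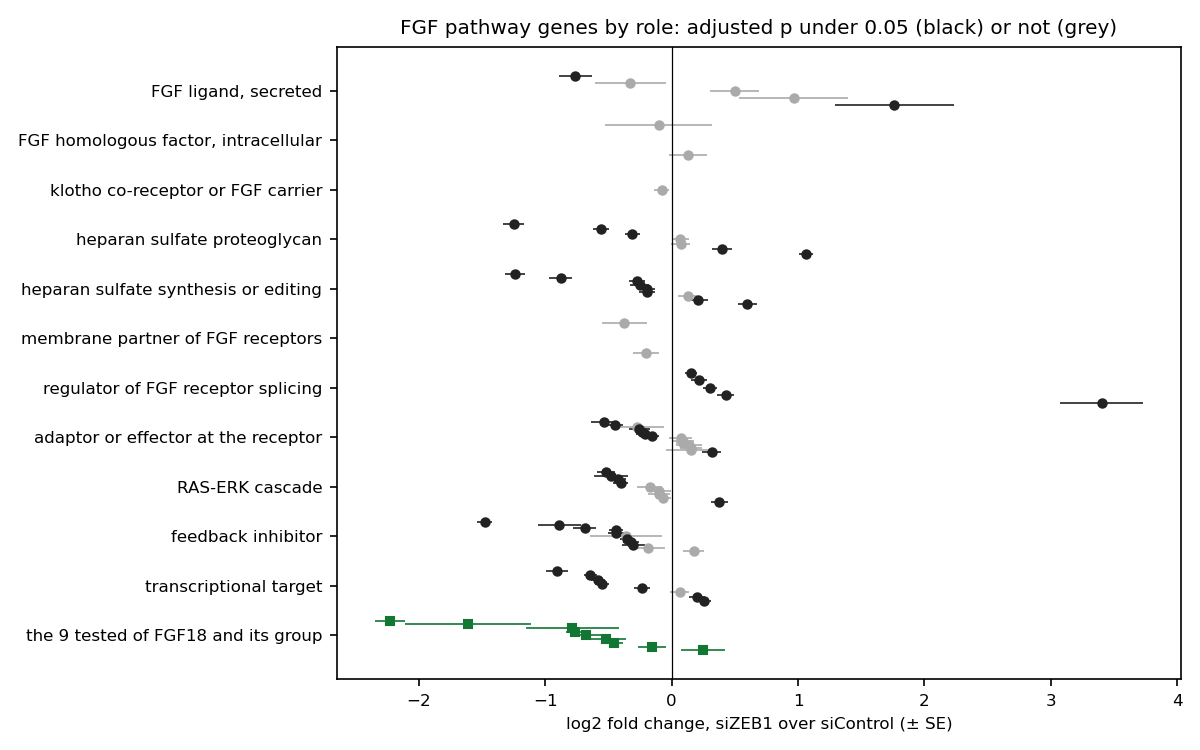
The horizontal axis is the log2 fold change of siZEB1 over siControl, each point is a gene with a bar for ± SE, and the rows are the roles, with black points called at an adjusted p under 0.05, grey points not called, and green squares the 9 tested genes of the FGF18 group. ESRP1 lies farthest right at 3.40 and FGF18 farthest left at -2.23.

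The genes around the members were also read, a set chosen after the data were seen. On both sides of FGF18, its nearest tested protein-coding neighbours NPM1 and FBXW11 were not called, at log2 fold changes of 0.03 and 0.12 (edgeR's adjusted p = 0.611 and 0.17), and the next ones, RANBP17 and STK10, fell by 0.47 and 0.20 (edgeR's adjusted p = 0.00152 and 0.0297). FGF18 at -2.23 was lower than each of them. FGF19 lies in a stretch of 177.9 kb on chromosome 11 from CCND1 to FGF3 that holds 4 listed protein-coding genes. CCND1 fell by 0.55 and FGF3 by 0.76, and LTO1 between them rose by 0.18 (edgeR's adjusted p = 4.83e-07, 0.000163 and 0.0334). FGF19 stood at -0.46. The gene body of LTO1 overlaps that of CCND1 on the other strand, so its reads are uncertain without the strand setting. Whether the genes of the stretch move together was not tested. ANO1, the next tested gene beyond FGF3, was not called at -0.20 (edgeR's adjusted p = 0.229).
Around FGFR1, NSD3 and LETM2 were at 0.02 and -0.06 (edgeR's adjusted p = 0.898 and 0.743). TACC1 fell by 0.30 (edgeR's adjusted p = 0.00657), and PLEKHA2 was not called at -0.26 (edgeR's adjusted p = 0.19). The gene body of LETM2 overlaps that of FGFR1 on the other strand. Exons of LETM2 and AC087623.1 lie opposite 2.12% of the exonic bases of FGFR1. Beside FGFRL1, IDUA and SLC26A1, whose gene bodies overlap, fell by 0.84 and 1.07 from levels of 3.40 and 1.65 CPM (edgeR's adjusted p = 0.00699 and 0.0296). On its other side RNF212 and SPON2 were at 0.19 and 0.18 and were not called (edgeR's adjusted p = 0.51 and 0.773).

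The 5 genes whose log2 CPM over the 6 libraries ran most like that of FGF18, by root-mean-square difference after centring each gene (pseudocount 0.5 CPM), were ACO1, ACADM, CETN2, SRPRA and GPATCH11. The differences were 0.0653, 0.0915, 0.0941, 0.118 and 0.119 on the log2 scale. ACO1, an iron-responsive aconitase, averaged 58.7 CPM in siControl and 12.8 CPM in siZEB1, and ACADM, an enzyme of fatty acid oxidation, 63.5 and 14.4 CPM. CETN2 is a centrin, SRPRA the signal recognition particle receptor subunit α, and GPATCH11 a G-patch protein. With 6 libraries in 2 groups, likeness here is mainly likeness of fold change, and all 5 had log2 fold changes between -2.19 and -1.86.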

How the data were processed

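RNA from 6 SW480 libraries (3 siControl, 3 siZEB1) was sequenced on an Illumina instrument. The authors deposited whole-number read counts per gene, not normalized. The submitters' processing notes name Trimmomatic, HISAT2, SAMtools, featureCounts and hg38. Versions, the annotation and the strand setting are not given in the sources used here, so reads where a gene overlaps an opposite-strand exon are uncertain. Genes were matched by identifier to GENCODE 29 (GRCh38; 31059 of 32029), whose union exon lengths gave RPKM. Genes kept by filterByExpr were scaled by TMM and compared by the two-sided quasi-likelihood test of edgeR 4.0.16 (R 4.3.3) in a design holding only the group, and p-values were adjusted over 14996 genes by Benjamini-Hochberg. The members and lists were chosen with earlier results of these data known. Pathway genes were named by a rule: ESRP1, ESRP2, FRS2, KLB and GRB2, and in each role up to 3 called genes with the largest fold change among those of at least 1 CPM, or the most abundant gene where none was called. A comparison of protein sequences was not run here. The study describes the 3 samples per group as biological replicates, while the labels do not say that they are separate cultures, so p-values measure the spread between these libraries. Within groups, chi-square over degrees of freedom was 2.27 to 9.58, so no library repeats another.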

Additional observations from a re-analysis of the deposited data

How the results depend on the processing

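The members called lower numbered 6 with edgeR's quasi-likelihood test, with DESeq2 1.42.0, with median-of-ratios or total-count scaling, with no filter and with the replicate block. They numbered 5 at a minimum of 10 counts in every library (22.4% of all genes then tested were lower), 5 at a fold change above 1.5 with an unadjusted p under 0.05 (9.35% of all genes), 4 at an adjusted p under 0.01 (15.6% of all genes), and 4 to 6 with 1 library left out. DESeq2 called 19.0% of all genes lower and the block 17.9%. The members called higher numbered 0 in each of these. The 5 at the fold limit were not all among the 6. FGFR3 at -0.78 came in, while FGF19 at -0.46 and FGFBP3 at -0.52 fell short of the limit. At a fold change above 1.5 with an unadjusted p under 0.05, 1081 genes were higher and 1402 lower in place of 2849 and 3186, and 5 pathway genes were higher and 9 lower in place of 14 and 33, and since an adjusted p under 0.05 implies an unadjusted one under 0.05, the fold limit is what lowers these counts. With 1 library left out, 2305 to 2928 genes were called higher and 2637 to 3311 lower, and 11 to 14 pathway genes higher and 26 to 33 lower. Without siControl replicate 1, L1CAM was called at -0.29 (edgeR's adjusted p = 0.0373).

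Same-numbered libraries deviated with correlations of -0.0517, -0.0883 and -0.200, so the numbers were not taken as pairs. With the replicate block, 2289 genes were called higher and 2679 lower, and 10 pathway genes higher and 26 lower. No scaling moved the median log2 fold change of all genes by 0.1. Depth limits FGF2, FGFR2 and FGFR3, each with at most 20 reads in a library.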
